A study of Mus musculus with 7 samples.

Results

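The 9 genes described here, Mecom, Hlf, Prdm16, Meis1, Pbx3, Hmga2, Lin28b, Gfi1 and Gfi1b, encode regulators that maintain hematopoietic stem cells (HSCs). They were taken by symbol, and all 9 were found among the 48440 genes of the deposited expression table. RNA was sequenced from LSK cells, the lineage-negative bone marrow (BM) cells with Sca1 and cKit on their surface that include HSCs and multipotent progenitors. C57BL/6 recipient mice received 9.5 Gy of irradiation and then unfractionated BM from wild-type donors (4 libraries) or from donors with a constitutive, endonuclease-mediated PROSER1 KO (3 libraries), and LSK cells were sorted at day 77. PROSER1 is a partner of the TET enzymes, which oxidize methylated cytosine, and the comparison asks how its loss alters gene expression in stem and progenitor cells. The ages of donors and recipients, and whether the sort separated donor from surviving host cells, are not given in the sources used here. Because the deletion was constitutive, the donor cells lacked PROSER1 before transplantation as well as after it.

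HSC self-renewal is the division of a stem cell into cells that remain stem cells, and it depends on transcription factors that keep differentiation programs silent and restrain division. MECOM, PRDM16, HLF, MEIS1 with its PBX partners, GFI1 and GFI1B are such DNA-binding factors. The other two members act at other levels. HMGA2 is a small chromatin protein with AT-hooks, and LIN28B is an RNA-binding protein that blocks the maturation of let-7 microRNAs. The pair is known from fetal HSCs, where LIN28B keeps let-7 low and thereby permits the let-7 target Hmga2 to be expressed.

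All 9 members lie on the minus strand (GRCm38). Mecom (ENSMUSG00000027684) occupies chr3:29951296-30548008, and is 22916 kb from Proser1 on the same chromosome. Prdm16 (ENSMUSG00000039410) lies at chr4:154316125-154636873, Hlf (ENSMUSG00000003949) at chr11:90336536-90390895 and Meis1 (ENSMUSG00000020160) at chr11:18879817-19018985. Pbx3 (ENSMUSG00000038718) lies at chr2:34171457-34373142, Gfi1b (ENSMUSG00000026815) at chr2:28609450-28621982 and Gfi1 (ENSMUSG00000029275) at chr5:107716657-107726036. Hmga2 (ENSMUSG00000056758) lies at chr10:120361275-120476469 and Lin28b (ENSMUSG00000063804) at chr10:45376620-45486395. All are protein-coding. The values below are for whole genes, so that the transcripts of a gene (17 annotated for Mecom, 13 for Prdm16) were not separated.

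The let-7 microRNAs recognize messenger RNAs through their seed, bases 2 to 8, which is GAGGUAG in 11 mature mouse microRNAs of RefSeq (GRCm38.p6) from 13 loci. They are shown because Hmga2 and Lin28b are the members that this family is known to repress. In 3 of them, printed with the seed in capitals, the seed is identical and the rest of the sequence varies.
mmu-let-7a-5p: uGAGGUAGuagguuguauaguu
mmu-let-7b-5p: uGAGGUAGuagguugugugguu
mmu-let-7i-5p: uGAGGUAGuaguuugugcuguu

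The letters CTACCTC, complementary to this seed, were searched on the transcript strand in the 3′ UTR of 1 GENCODE M21 transcript per gene (GRCm38). Hmga2 held 4 matches in 3014 bases of 3′ UTR and Lin28b 4 in 4445 bases. Hlf and Pbx3 held 1 each, and Mecom, Prdm16, Meis1, Gfi1 and Gfi1b held 0. Over 20999 protein-coding genes with a 3′ UTR, 9.03% held at least 1 match, and 12 genes held 4 or more. A match is a description of the letters and was not measured as a bound site. The matches of Hmga2 and Lin28b, all exonic and on the minus strand of chromosome 10, are given 5′ to 3′ with the complement of the seed in capitals and 14 bases before it.
Hmga2, chr10:120364224-120364245: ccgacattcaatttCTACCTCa
Hmga2, chr10:120362987-120363008: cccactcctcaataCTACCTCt
Hmga2, chr10:120362549-120362570: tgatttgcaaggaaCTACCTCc
Hmga2, chr10:120361691-120361712: atcaaaacacactaCTACCTCt
Lin28b, chr10:45381022-45381043: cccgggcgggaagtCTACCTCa
Lin28b, chr10:45378648-45378669: atacttgttagtaaCTACCTCt
Lin28b, chr10:45378476-45378497: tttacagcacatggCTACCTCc
Lin28b, chr10:45377060-45377081: aatgatggcaccgaCTACCTCt

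Each library held 33143619 to 45140743 read pairs on genes, and the values are normalized counts, that is, read pairs divided by 1 size factor per library. A count of 0 allows 3 read pairs, between 2.54 and 3.48 normalized counts, for counting error only. The LSK gate was reflected in high Kit (25535 to 32357) and Ly6a (the Sca1 gene) in all 7 libraries. Cd34, which is not part of the gate, was also high. Genes of plasma cells, which the gate should lack, were also abundant, with Jchain, the joining chain of immunoglobulins, at 151607 to 384345 in wild-type and 179939 to 269328 in PROSER1 KO. PROSER1 KO replicate 1 stood apart in the T-cell genes Cd3g and Cd3e. It had 697 normalized counts of Cd3g against 20.9 to 52.9 elsewhere, and 197 of Cd3e against 5.75 to 24.0. Its Cd4 (170) lay within the range of the other libraries, and its Cd8a (33.4) and Lck (2230) were highest by little. It was also the highest library for the lymphoid genes Rag1 (2920), Pax5 (303) and Ebf1 (494), against at most 1240, 170 and 258 elsewhere. The marker lists for lymphoid, erythroid, granulocyte, B, T, plasma, mast and stromal cells had summed levels that overlapped between the groups, although single abundant genes such as Jchain carry most of some sums. Among single markers, Mcpt8 of basophils was lower (log2 fold change -0.83), called by DESeq2 (adjusted p = 0.0414) and not by limma (0.280). In its list 2 genes were above and 2 below 0, and Cpa3 was higher without overlap (0.23). Ctsg of granulocytes (log2 fold change -0.44, adjusted p = 0.303 from limma) was lower without overlap, as were 4.83% of tested genes. Cd4 of T cells (-0.61, adjusted p = 0.374 from limma) was too. Of 7 tested granulocyte genes 2 were above 0, with a median of -0.03, as were 2 of 5 T-cell genes. All 5 plasma cell genes had log2 fold changes below 0, with a median of -0.25 and 0 called. Other lineage markers were higher at an unadjusted p under 0.05 in limma, as were 5.0% of all tested genes. These were Rag1 of lymphoid-primed progenitors (log2 fold change 0.80), Pax5 (0.99) and Ebf1 (0.75) of B cells and Itga2b of megakaryocytes (0.24). All overlapped between the groups and 0 were called. Of B-cell genes 3 were above and 2 below 0, with a median of 0.53. Of megakaryocyte and erythroid genes 6 were above and 2 below 0, with a median of 0.36. Proser1 itself ranged from 2019 to 2153 in wild-type and from 2338 to 2464 under the PROSER1 KO label, and since its messenger RNA was not lower there, every direction below rests on the labels.

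The members covered a wide range of levels in wild-type LSK cells. Per kb of merged exon, Hlf was the highest, at 2109 ± 264 normalized counts (SD, n = 4), followed by Meis1 at 754 ± 32.1. Gfi1b at 564 ± 91.2 and Gfi1 at 559.5 ± 34.4 were not separated, since the Gfi1 libraries lay within the range of the Gfi1b libraries. Mecom followed at 227 ± 11.9, close to the median of 208 normalized counts per kb over 16195 tested genes with a known length. Hmga2 at 167 ± 21.01, Prdm16 at 106 ± 10.5 and Pbx3 at 65.4 ± 5.80 lay below that median. Apart from Gfi1b and Gfi1, the wild-type libraries of neighbouring members in this order did not overlap, and Lin28b was last. Levels depend on the length used. Per kb of the longest transcript Mecom was at 471 to 532 in wild-type, inside the 438 to 657 of Gfi1b. The median of tested genes was not taken on that length, so that places relative to it hold for merged exons only.

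**Figure D1:**
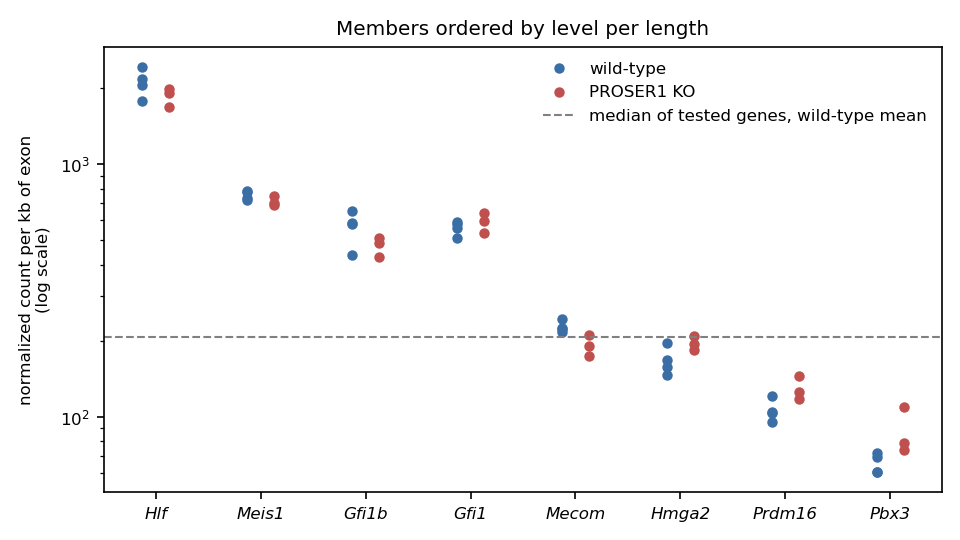
Normalized counts per kb of merged exon (log scale) of the 8 members above the detection limit in each of 4 wild-type and 3 PROSER1 KO libraries, with each point a library. Hlf lay far above the dashed line, the median of tested genes at 208, Mecom lay near it and Pbx3 was the lowest; Lin28b is not drawn.

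Between PROSER1 KO and wild-type LSK cells, 0 of the 8 members that could be tested were differentially expressed (limma, adjusted p under 0.05 and a fold change above 1.5), where 0.258% of the 16251 tested genes were. Lin28b was below the minimum mean of 10 normalized counts. At an unadjusted p under 0.05 in limma there were 4 members, with Prdm16, Pbx3 and Hmga2 higher, against 5.0% of all tested genes, and Mecom lower, against 4.74%; in either direction the share of all tested genes was 9.73%. With DESeq2 and edgeR on the recovered read pairs 0 members were called as well, and 6 and 4 had an unadjusted p under 0.05. The shares of all genes at that p in DESeq2 and edgeR were not taken, so that these counts have no background. Over all genes DESeq2 called 165, edgeR 42 and limma 42. Without PROSER1 KO replicate 1, the library with high Cd3g and Cd3e, 0 members were called and the same 4 had an unadjusted p under 0.05 in limma. The groups did not overlap in 2 of the 8 members. Pbx3 was higher, as were 5.17% of tested genes without overlap, and Mecom was lower, as were 4.83%. Of the 8 log2 fold changes 4 were above and 4 below 0. Their median was -0.0023 against 0.0015 over all tested genes, and the median of their absolute values was 0.24 against 0.095. The 95% intervals lay within a 1.5-fold change in either direction for 7 of the 8, and that of Pbx3 reached 1.65-fold. In bulk RNA such as this, a smaller share of cells that express a gene and less RNA per cell cannot be told apart.

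**Figure D2:**
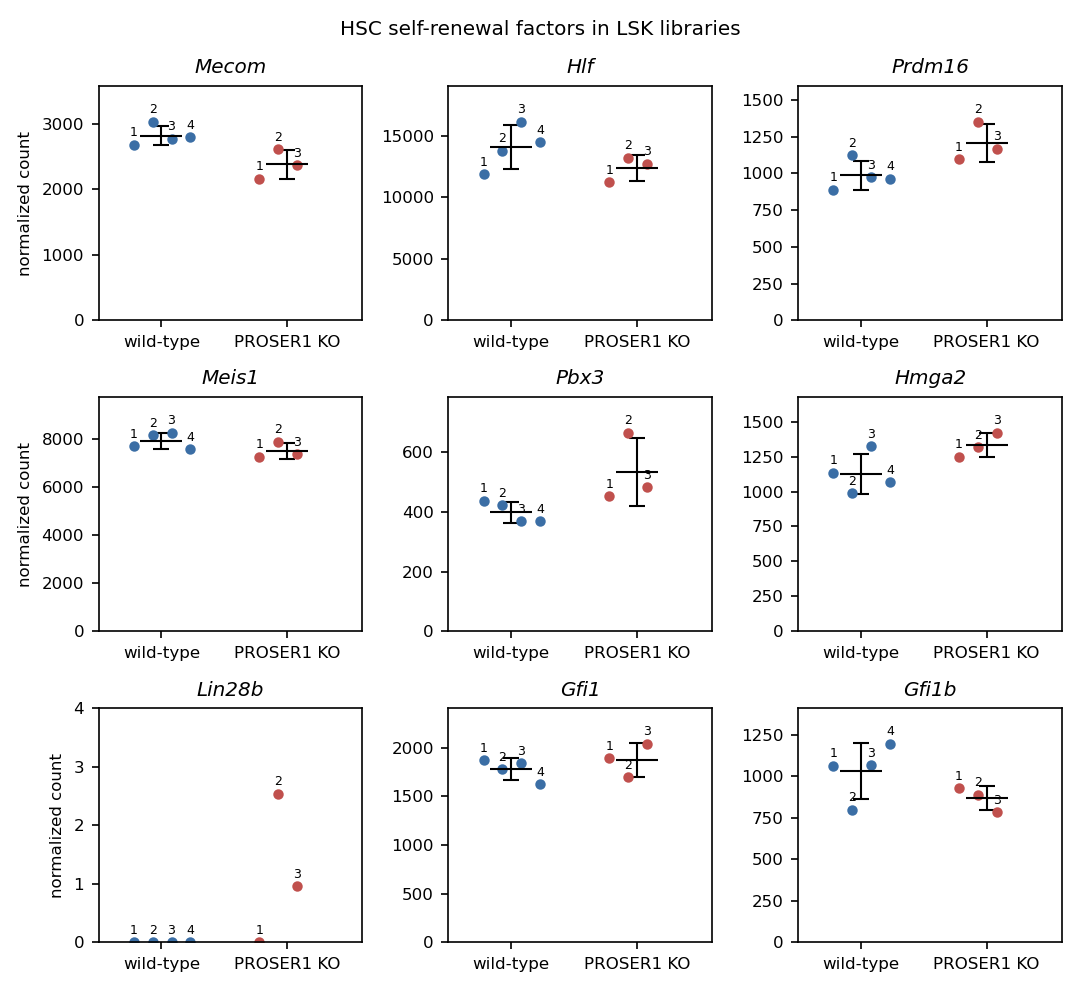
Normalized counts of each member (linear axes from 0) in every library, numbered by replicate; bars show the mean and SD of 4 wild-type and 3 PROSER1 KO libraries and are left out for Lin28b, which was at or below the limit of 3 read pairs. The groups are apart in Mecom and Pbx3 and overlap in the others.

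MECOM and PRDM16 are related zinc finger proteins of the PRDM family, and both are required to maintain adult HSCs. Mecom had normalized counts of 2683, 3029.8, 2772 and 2790.4 across wild-type replicates 1 to 4, against 2160.4, 2609.7 and 2365 for PROSER1 KO replicates 1 to 3. All 3 PROSER1 KO libraries lay below all 4 wild-type libraries, by a narrow margin for replicate 2. Mean levels were 2819 ± 148 (SD, n = 4) in wild-type and 2378 ± 225 (SD, n = 3) in PROSER1 KO. This was a log2 fold change of -0.25 (95% interval -0.41 to -0.09, standard error, SE, 0.071) that did not pass the threshold (adjusted p = 0.282 from limma, 0.310 from edgeR and 0.0684 from DESeq2).

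Prdm16 went the other way. It was measured at 889, 1122, 975 and 965 normalized counts across wild-type replicates 1 to 4, against 1098, 1351 and 1169 for PROSER1 KO replicates 1 to 3. Only wild-type replicate 2 reached into the range of the PROSER1 KO libraries, and within each group replicate 2 was the highest. The log2 fold change was 0.29 (95% interval 0.07 to 0.51, SE 0.098), with an adjusted p of 0.375 from limma.

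The ratio of Mecom to Prdm16 within a library does not depend on the size factors. The pair was chosen after the values had been seen, because the genes differed in opposite directions, so that a wider separation than that of either gene was fixed by the choice and the ratio is given without a test. The log2 ratio of Mecom to Prdm16 was 1.59, 1.43, 1.51 and 1.53 across wild-type replicates 1 to 4, against 0.98, 0.95 and 1.02 for PROSER1 KO replicates 1 to 3. On a linear scale Mecom stood at 2.86 times Prdm16 in wild-type and 1.97 times in PROSER1 KO. The ratio of Meis1 to Pbx3 did not overlap either, with log2 values of 4.14 to 4.48 in wild-type and 3.57 to 4.01 in PROSER1 KO. The ratios of Gfi1 to Gfi1b and of Hlf to Mecom overlapped.

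**Figure D3:**
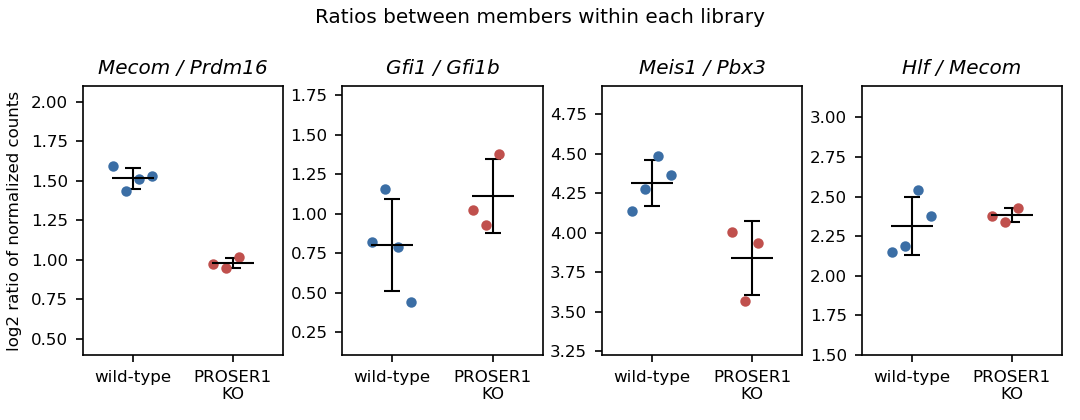
Log2 ratio of the normalized counts of 4 pairs of members in each library, with the mean and SD of 4 wild-type and 3 PROSER1 KO libraries; the vertical axes have the same span and different centers. The Mecom to Prdm16 ratio was 1.43 to 1.59 in wild-type and 0.95 to 1.02 in PROSER1 KO.

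The known cofactors of MECOM and PRDM16, such as the CTBP corepressors and the histone H3 lysine 9 methyltransferases, differed little. Of 8 such genes 8 were tested and 0 were called or had an unadjusted p under 0.05 in limma. Their log2 fold changes lay between -0.06 (Ehmt2, which encodes the methyltransferase G9a) and 0.08 (Ski, a corepressor), with a median of 0.02.

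Mecom has RefSeq starts 497 kb apart, and the 250 bases before each are printed because transcripts from the distal start encode the longer MDS1-EVI1 protein with a PR domain, while the start nearer the common exons gives EVI1. The deposited counts do not separate them. The letters AAATCA (GFI1 and GFI1B), TGACAG (MEIS), TGATNNAT (PBX with HOX), TTACNTAA (the PAR bZIP family of HLF) and AGATAA (known for GATA1 and its relatives) were searched on both strands, and capitals mark the matches. Of 32851 RefSeq windows of this length, 12.43% held AAATCA, 15.86% TGACAG, 7.683% TGATNNAT, 2.061% TTACNTAA and 9.988% AGATAA. The distal window held 1 AAATCA and 1 TGATNNAT, and the proximal window held 1 TGACAG, written here as its complement CTGTCA. Gfi1b, whose protein is known to repress its own gene, held 1 AAATCA. All are on the minus strand (GRCm38.p6).
Mecom distal, chr3:30509760-30510009: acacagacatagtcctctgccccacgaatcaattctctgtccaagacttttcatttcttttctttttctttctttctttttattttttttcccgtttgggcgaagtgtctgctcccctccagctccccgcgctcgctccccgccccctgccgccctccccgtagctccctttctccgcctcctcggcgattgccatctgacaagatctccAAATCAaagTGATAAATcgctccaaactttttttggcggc
Mecom proximal, chr3:30013205-30013454: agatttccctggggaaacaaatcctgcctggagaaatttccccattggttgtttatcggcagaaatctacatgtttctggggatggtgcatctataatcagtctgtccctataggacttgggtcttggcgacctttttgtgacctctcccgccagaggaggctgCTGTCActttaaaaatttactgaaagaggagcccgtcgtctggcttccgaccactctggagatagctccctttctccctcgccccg
Gfi1b, chr2:28621983-28622232: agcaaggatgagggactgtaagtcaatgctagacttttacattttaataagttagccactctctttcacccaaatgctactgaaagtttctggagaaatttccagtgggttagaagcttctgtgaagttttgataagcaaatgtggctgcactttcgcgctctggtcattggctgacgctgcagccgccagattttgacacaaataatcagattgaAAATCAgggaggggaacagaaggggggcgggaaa

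In all, 10 windows of 8 members were found, with none for Pbx3. Windows of Hlf, Prdm16, Meis1, Hmga2 and Gfi1 held 0 of the 5 motifs, which says only that these letters are not in the 250 bases. The Lin28b window, at 39.2% GC against a median of 52.4% over all windows, held 2 matches each of AAATCA, TGATNNAT and AGATAA and 1 of TGACAG, some overlapping.

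HLF, a PAR bZIP factor that is among the most HSC-restricted transcription factors, was the most highly expressed member. Hlf had 11890.3, 13797, 16155 and 14508 normalized counts across wild-type replicates 1 to 4, against 11246.5, 13226 and 12746 for PROSER1 KO replicates 1 to 3. The groups overlapped, with wild-type replicate 1 below 2 of the PROSER1 KO libraries and wild-type replicate 3 the highest. Hlf thus had a log2 fold change of -0.18 in limma (95% interval -0.40 to 0.04, SE 0.098, adjusted p = 0.594). Of the 3 genes tested around it, Tef and Dbp, which encode the other PAR bZIP proteins, and Nfil3, which encodes a repressor of the same DNA sites, 0 were called by limma or had an unadjusted p under 0.05. Their log2 fold changes were between -0.10 (Dbp) and 0.05 (Nfil3). The sign for Nfil3 was not stable when single libraries were left out.

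MEIS1 and PBX3 are homeodomain proteins of the TALE class that bind DNA together with HOX proteins. Meis1 had 7709, 8184, 8277 and 7600.2 normalized counts across wild-type replicates 1 to 4, against 7286, 7903 and 7396 for PROSER1 KO replicates 1 to 3. These values overlapped and varied little within a group. With a log2 fold change of -0.08 in limma (95% interval -0.19 to 0.04, SE 0.050, adjusted p = 0.665), Meis1 had the narrowest interval of the members.

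Pbx3 had the largest log2 fold change of the members. It was measured at 438, 422, 370.1 and 369 normalized counts across wild-type replicates 1 to 4, against 453, 665 and 483 for PROSER1 KO replicates 1 to 3. All PROSER1 KO libraries lay above all wild-type libraries, replicates 1 and 3 by little and replicate 2 by far. In log2 terms the change was 0.40 in limma (95% interval 0.08 to 0.72, SE 0.142, adjusted p = 0.396), and 0.23 without PROSER1 KO replicate 2.

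Among 11 genes for other TALE proteins and HOX partners, 10 were tested and 0 were called by limma. Hoxa10 and Hoxb4 were higher and Meis3 was lower at an unadjusted p under 0.05 in limma. The median log2 fold change of the list was -0.06. The ends of its range were Hoxb4, a HOX factor known to expand HSCs, at 0.23 (adjusted p = 0.486 from limma), and Meis3 at -0.86 (adjusted p = 0.423 from limma). Meis3 was at 72.4 to 119 normalized counts in wild-type and at 36.4 to 90.2 in PROSER1 KO, and these overlapped.

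Hmga2 had 1135, 989, 1322 and 1067 normalized counts across wild-type replicates 1 to 4, against 1249.7, 1318 and 1420.0 for PROSER1 KO replicates 1 to 3. Wild-type replicate 3 lay inside the range of the PROSER1 KO libraries, and the other wild-type libraries lay below it. Its log2 fold change was 0.24 in limma (95% interval 0.02 to 0.46, SE 0.098, adjusted p = 0.457).

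Lin28b, in contrast, was not detectable above the limit. It had 0 read pairs in all wild-type libraries and in PROSER1 KO replicate 1, with 3 in replicate 2 and 1 in replicate 3. Hmga2, with the same number of seed matches, was thus measured at 989 to 1420.0 normalized counts in libraries where Lin28b was at or below 3 read pairs. Lin28a, the paralog of Lin28b, was at 1.16 to 4.60 normalized counts in wild-type and 4.80 to 10.4 in PROSER1 KO, too low for the test.

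The list of LIN28, let-7 processing and let-7 target genes held 13 genes, of which 10 were tested and 0 were called or reached an unadjusted p under 0.05 in limma. The median log2 fold change was 0.02. It ran from -0.11 for Dis3l2, a nuclease that degrades uridylated let-7 precursors, to 0.42 for Igf2bp3, an RNA-binding protein of the fetal program. Igf2bp3 was low, with means of 13.5 ± 2.99 normalized counts (SD, n = 4) in wild-type and 18.4 ± 4.45 (SD, n = 3) in PROSER1 KO, and its standard error was 0.377. Of other genes with 4 seed matches, Trim71 was at 0 in all libraries and Igf2bp1 was at 2.30 in 1 wild-type library and 0 in the others. Mature let-7 was not measured, and the 12 let-7 precursor genes of the table had at most 13.5 normalized counts.

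GFI1 and GFI1B are zinc finger repressors that recruit the LSD1 and CoREST corepressors through a SNAG domain, and they restrain HSC division. Gfi1 had 1876, 1784, 1844 and 1629 normalized counts across wild-type replicates 1 to 4, against 1894, 1697 and 2042 for PROSER1 KO replicates 1 to 3. These overlapped, with a log2 fold change of 0.07 in limma (95% interval -0.10 to 0.24, SE 0.077, adjusted p = 0.806).

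Gfi1b had 1064, 799, 1067 and 1196 normalized counts across wild-type replicates 1 to 4, against 931, 890.2 and 786 for PROSER1 KO replicates 1 to 3. It was the most variable member among the wild-type libraries, with a coefficient of variation of 16.2%, and wild-type replicate 2 lay among the PROSER1 KO libraries. This gave a log2 fold change of -0.24 in limma (95% interval -0.53 to 0.06, SE 0.129, adjusted p = 0.594).

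Of 8 corepressor genes of GFI1 and GFI1B 8 were tested with limma and 0 were called, and Ajuba, Rcor2 and Hmg20b were lower at an unadjusted p under 0.05. Ajuba, which encodes a LIM protein that binds the SNAG domain, had 106, 161, 114 and 109 normalized counts across wild-type replicates 1 to 4, against 79.3, 65.2 and 53.8 for PROSER1 KO replicates 1 to 3. The groups did not overlap. Its log2 fold change was -0.88 in limma (SE 0.222, adjusted p = 0.204), and DESeq2 called it (adjusted p = 0.0414). The highest of the list was Rcor1, which encodes CoREST, at 0.04, and Kdm1a, which encodes LSD1, was at -0.02 (adjusted p = 0.926 from limma).

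Of 11 genes described as targets of the members, 11 were tested with limma and 0 were called. Csf1 and Csf1r were higher and Id2 lower at an unadjusted p under 0.05. Id2, an inhibitor of bHLH factors that GFI1 is known to repress, had 1104, 720.3, 640.2 and 659.6 normalized counts across wild-type replicates 1 to 4, against 523, 441 and 459 for PROSER1 KO replicates 1 to 3. All PROSER1 KO libraries lay below all wild-type libraries, of which replicate 1 was far above the rest. The log2 fold change of Id2 was -0.69 in limma (SE 0.177, adjusted p = 0.213), and DESeq2 called it (adjusted p = 0.00178). Csf1r, the receptor for macrophage colony-stimulating factor, had a log2 fold change of 0.47 in limma (SE 0.149, adjusted p = 0.334), with 424 to 631 normalized counts in wild-type and 657 to 870.0 in PROSER1 KO. Ajuba and Id2 are also in the study's own list of changed genes from these libraries, so that they are not independent evidence. Over the 6 lists, 0 of 50 tested genes were called by limma and 10 had an unadjusted p under 0.05, against 9.73% of all tested genes. Of these 5 were higher and 5 lower, against 5.0% and 4.74% of all tested genes. Of the 50, edgeR called 0 and DESeq2 called 2, where over all genes they called 42 and 165.

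**Figure D4:**
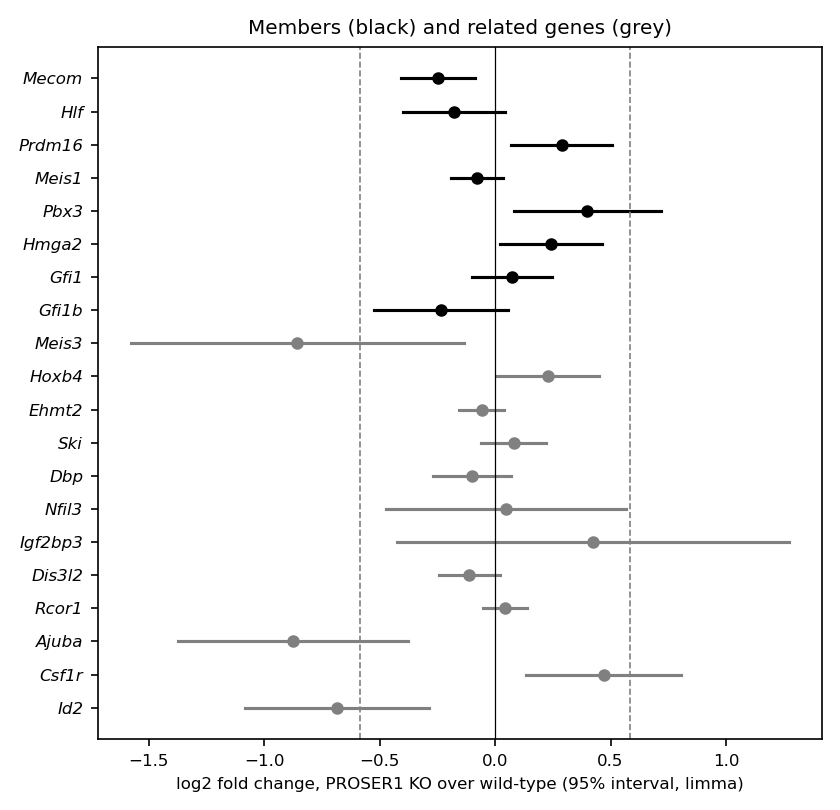
Log2 fold change (PROSER1 KO over wild-type, limma) with its 95% interval for the 8 tested members in black and for the highest and lowest gene of each of 6 related lists in grey; dashed lines mark a 1.5-fold change. The members lie between -0.25 (Mecom) and 0.40 (Pbx3), and only the interval of Pbx3 crosses a dashed line.

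Because several members mark HSCs within the LSK gate, 10 other markers of long-term HSCs were measured beside them. Of these 0 were called by limma, 2 (Fgd5 and Hoxb5) were higher at an unadjusted p under 0.05, against 5.0% of all tested genes, and 9 of the 10 log2 fold changes were above 0 with a median of 0.18. Over all tested genes 50.6% were above 0. The summed level of the 10 markers was 13908 to 16614 normalized counts in wild-type and 16986 to 17395 in PROSER1 KO, without overlap. It rested on Vwf, the von Willebrand factor gene of platelet-biased HSCs, and without it the sums were 12531 to 14063 and 12755 to 14767, which overlapped. Beside them, Mecom, Hlf, Meis1 and Gfi1b had log2 fold changes below 0 and Prdm16, Pbx3, Hmga2 and Gfi1 above 0, and the 95% intervals of Hlf, Meis1, Gfi1b and Gfi1 included 0. The part of a changed share of HSCs in these differences was not tested.

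**Figure D5:**
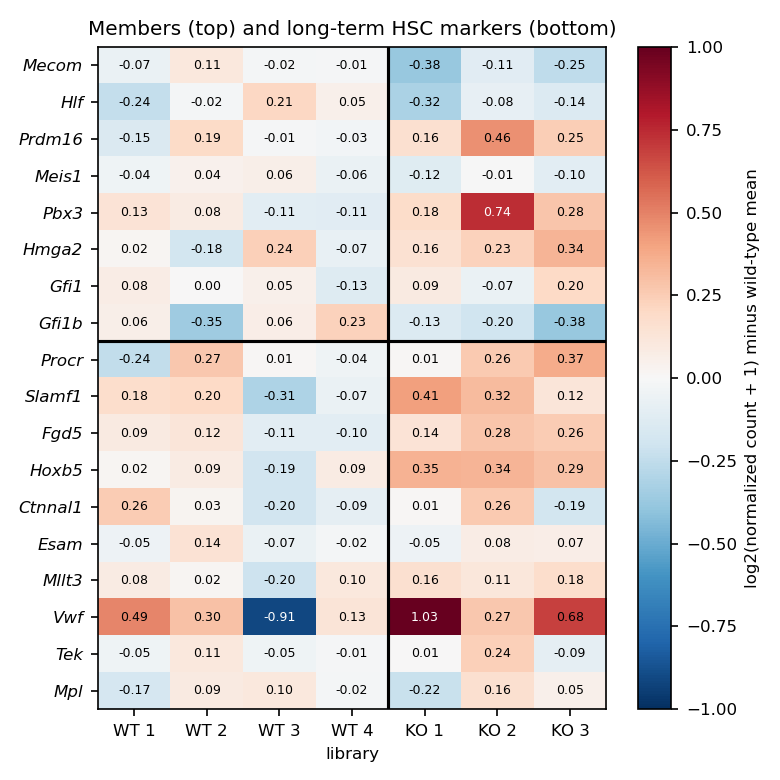
Difference of log2(normalized count + 1) from the wild-type mean, printed and colored for each library, for the 8 tested members (top) and 10 long-term HSC markers (bottom). In all 3 PROSER1 KO libraries Mecom, Hlf, Meis1 and Gfi1b were below 0 and Prdm16, Pbx3 and Hmga2 above 0, while Gfi1 was mixed. Of the markers, Procr, Slamf1, Fgd5, Hoxb5, Mllt3 and Vwf were above 0 in all 3. Vwf varied the most, also among wild-type libraries.

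How alike the members were across the 7 libraries, the difference between the groups included, varied by pair. The highest Pearson correlations between members were those of Mecom with Meis1 (r = 0.82) and Prdm16 with Pbx3 (r = 0.82), followed by Hlf with Meis1 (0.73) and Mecom with Hlf (0.68). The lowest were Prdm16 with Gfi1b (-0.72) and Mecom with Hmga2 (-0.64). Among 11996 tested genes with a mean of at least 100 normalized counts, the gene most like Mecom was Tmem29 (r = 0.972), that most like Prdm16 was Skp2 (0.976) and that most like Hlf was 4930519L02Rik (0.987). For the others these were Trub2 for Meis1 (0.963), Fars2 for Pbx3 (0.987), Ormdl2 for Hmga2 (0.988) and Ifi35 for Gfi1 (0.979). The gene most like Gfi1b was the immunoglobulin variable gene Igkv3-2 (0.976), which had 3173 to 28010 normalized counts in wild-type and 1962 to 4279 in PROSER1 KO, and whose reads are uncertain because it shares sequence with its family. With 7 libraries in 2 groups and many genes compared, such values are descriptions.

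The kit marks the strand, but it is not stated whether counting used it, so that reads in exons shared with a gene on the other strand are uncertain. These stretches were short for Gfi1 (101 bases with A430072P03Rik), Hmga2 (140 bases with 1700006J14Rik), Mecom (81 bases with Mecomos) and Prdm16 (109 bases with B230104I21Rik, which was at 0). Meis1 shared 896 bases with Gm16140 on the other strand and 1029 bases with Gm37818 on its own, genes with means of 211 and 279 normalized counts. Hlf, Pbx3, Lin28b and Gfi1b shared no exon bases with another gene.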

How the data were processed

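The data are RNA-seq of 4 wild-type and 3 PROSER1 KO LSK libraries, grouped by their labels, which call them biological replicates. Per the methods and the submitters' processing notes, the authors used Trimmomatic for trimming, STAR for alignment to mm10 and featureCounts for read pairs per gene, and divided by DESeq2 size factors, so that the deposited values are a normalized signal per gene. The file header names another GENCODE release (vM10) than the methods (25), and versions of these tools are not given in the sources used here. Read pairs were recovered (100% of values whole within 0.01), and 0 columns of other samples were present. The 685 genes without a symbol stayed in the tests.

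Differences between groups were fitted in R 4.3.3 by limma 3.58.1 (eBayes with trend) on log2(normalized count + 1), a scale that understates changes of low genes, for the 16251 genes whose mean reached 10, with Benjamini-Hochberg adjustment over all of them. Calls needed an adjusted p under 0.05 and a fold change above 1.5. The p-values set the difference between the groups against the spread between these libraries. Whether libraries of a group come from different donors is not given in the sources used here. Alternatives were pseudocounts of 0.1 and 10, no minimum mean or 50, eBayes without trend or robust, quantile and TMM normalization, edgeR 4.0.16 (quasi-likelihood), DESeq2 1.42.0, no fold minimum, a block for the replicate number, omission of each library, and the longest transcript as length. Scripts were tested on simulated data. Positions and UTRs are from GENCODE M21, and promoters and microRNAs from RefSeq.

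Named genes were all members and Proser1, the called genes and the highest and lowest log2 fold change of each related list, the most correlated gene of each member, and genes overlapping a member. The other genes at an unadjusted p under 0.05, those at or near 0, Kdm1a and the ratios were chosen after values were seen. The members and lists were chosen with earlier results of these data known.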

Additional observations from a re-analysis of the deposited data

Results flagged for a closer look

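Ajuba was flagged in wild-type, where replicate 2 stood at 161 normalized counts above the remaining 3 libraries at 106 to 114, a gap of 0.856 of the group's range which is above Dixon's 95% critical value. It was 1 of 21 genes examined in this way, and chance flags about 1 in 20 groups. All 3 PROSER1 KO libraries lay below all 4 wild-type libraries with or without that replicate.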

How the results depend on the processing

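Over 18 other fits of the 8 tested members (144 values), 0 members were called, 0 log2 fold changes changed sign, and the lowest adjusted p was 0.0684 (Mecom, DESeq2). Single libraries moved some of these values by over 1.5 times: Hlf to -0.11 without wild-type replicate 3 or PROSER1 KO replicate 1, Gfi1 to 0.03 without wild-type replicate 4, 0.01 without PROSER1 KO replicate 3 and 0.14 without PROSER1 KO replicate 2, Gfi1b to -0.35 without wild-type replicate 2, and Pbx3 to 0.23 without PROSER1 KO replicate 2. Without PROSER1 KO replicate 2, 1 member, Mecom, had an unadjusted p under 0.05, and with each library left out there were 1 to 4. The number of differentially expressed genes was 17 with eBayes without trend, 80 with robust variance estimates and 165 with DESeq2, and 23 to 42 with a library left out, the lowest without PROSER1 KO replicate 2. DESeq2 called 2 related genes, Ajuba and Id2. The log2 fold change of Nfil3 was -0.0566 with the replicate block and -0.19 to 0.24 with a library left out. The cause of these shifts was not tested. With the length of the longest transcript, 4 ranks in the order of levels changed, between Gfi1 and Gfi1b and between Prdm16 and Pbx3. Omitting Vwf, an alternative added after seeing the data, moved the difference in summed HSC markers from 1926 to 779 normalized counts. Deviations of samples with the same number had correlations of 0.02, 0.06 and -0.11. The labels do not say whether the numbers pair samples. Without a known pair for comparison these values cannot decide it. With the replicate number as a block, to which wild-type replicate 4 adds nothing, 35 genes and 0 members were called. Igf2bp3 could not be fitted at a minimum mean of 50. Among the members only Lin28b was at or below the limit of 3 read pairs, and the part of depth in this was not tested.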
